A study of Homo sapiens with 2 samples.

Results

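The 10 genes of imprinted loci examined in the S9.6 peak list of A549 cells were H19, IGF2, KCNQ1OT1, MEG3, PEG3, PEG10, SNRPN, SNURF, GNAS and MEST. They were chosen by name, and every S9.6 peak with at least 1 base between 1000 bp before and 1000 bp after the span of each gene was taken. These are 10 of 59098 genes that the RefSeq table places on chromosomes 1 to 22 and X, 7 of them protein-coding and 3 lncRNA genes. A549 is an established human lung cancer line, used here as wild type with no treatment named in the labels. The study mapped R-loops, in which RNA pairs with a DNA strand, by CUT&Tag, in which an antibody directs a transposase to cut and tag nearby DNA. It has 2 libraries: 1 made with S9.6, which recognises hybrids of RNA and DNA, and 1 made with control IgG. The IgG library was not analysed here, so the values below are of 1 S9.6 library without a replicate or a background track, and none of them is tested.

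Imprinted genes are expressed mainly from the copy inherited from 1 parent. The choice is set in the germ line by DNA methylation of control regions, many of which are CpG-rich and lie at the promoter of a long noncoding RNA or of a paternally expressed gene. At the KCNQ1OT1 promoter and at the start shared by SNURF and SNRPN, the control region is methylated on the maternal copy and the transcript comes from the paternal one. H19 and MEG3 are maternally expressed, GNAS uses several promoters of different parental origin, and the other 7 genes are paternally expressed. In this peak list the parental copies cannot be told apart.

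Peaks lay over 7 of the 10 genes, and the highest were at PEG10, KCNQ1OT1 and the shared start of SNURF and SNRPN. H19, PEG3 and MEST had none. The 7 genes are 70% of the list (95% Wilson interval 39.7 to 89.2, counting error only), beside 33.3% of all genes, 60.4% of protein-coding genes and 29.3% of lncRNA genes. With so few genes, the share cannot be set apart from that of protein-coding genes. Of the 7 protein-coding members 5 had a peak, and of the 3 lncRNA members 2 had one. By the known parental expression, a peak was present at 5 of the 7 paternally expressed genes, at 1 of the 2 maternally expressed ones and at GNAS. As SNURF lies inside the span of SNRPN and shares its peak, the 10 genes form 9 loci, 6 of them with a peak, and carry 14 distinct peaks.

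**Figure D1:**
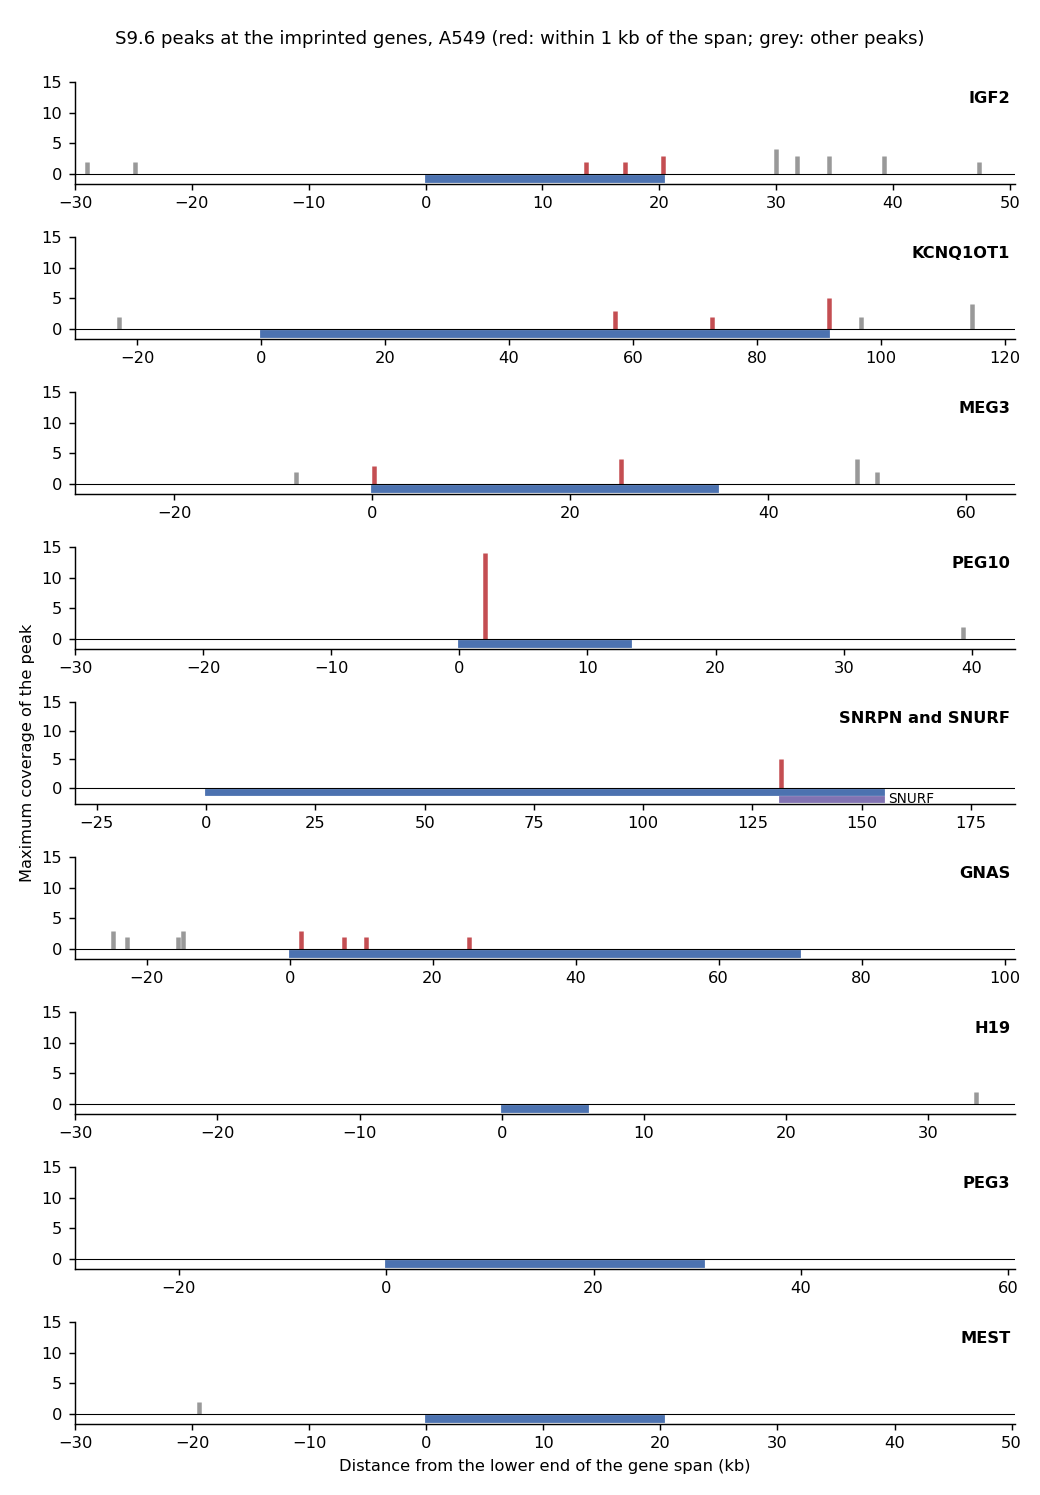
Peaks at the 9 imprinted loci, with the distance in kb from the lower end of each gene span on the x axis and the maximum coverage of each peak as the height of its line. Blue bars are gene spans, the purple bar is SNURF, red lines are peaks over the span with 1000 bp flanks and grey lines are other peaks within 30 kb; the PEG10 peak reaches 14, and H19, PEG3 and MEST have no red line.

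Each peak carries a total signal, which is the coverage summed over its bases, and a maximum coverage. The 14 peaks were 456 to 1109 bp wide (median 689.5 bp, against 685.5 bp for the 45756 peaks of these chromosomes). Their total signal ran from 804 to 4608 with a median of 1149.5, against 986. Their maximum coverage ran from 2 to 14 with a median of 3, against 2. Among them, 6 had a maximum of 2, 4 had 3, 1 had 4 and 3 had 5 or more. Thus 21.4% of them reached 5, compared with 9.54% of all peaks. This share rests on 3 peaks and was not tested, and all peaks include those outside genes. These 3 high peaks gave 4 of the 10 genes a peak of at least 5, beside 8.6% of all genes, 17.8% of protein-coding genes and 5.46% of lncRNA genes.

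**Figure D2:**
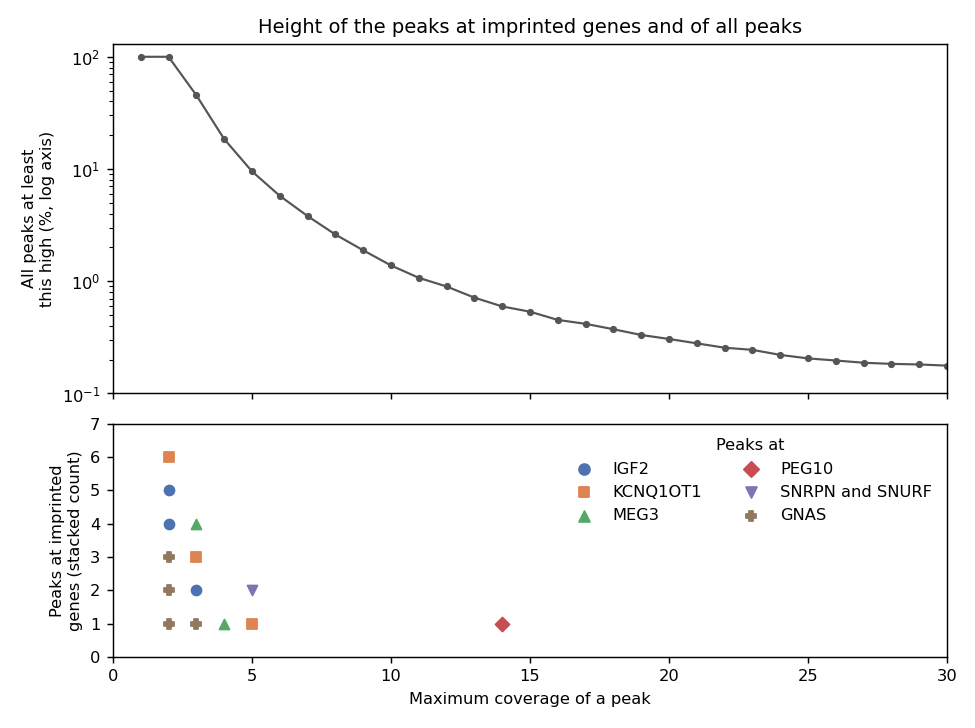
Upper panel: the percentage of all peaks on chromosomes 1 to 22 and X that are at least as high as the maximum coverage on the x axis, on a log axis. Lower panel: each of the 14 peaks at imprinted genes as a point, stacked at its maximum coverage; PEG10 stands at 14, KCNQ1OT1 and the SNRPN and SNURF peak at 5, and the other 11 at 2 to 4.

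Promoter sequences were available in RefSeq (GRCh38.p14) for 6 of the 10 genes, H19, MEG3, SNRPN, SNURF, GNAS and MEST. IGF2, KCNQ1OT1, PEG3 and PEG10 had no entry. The 250 bases before 6 transcript starts are shown, 3 with a peak at the window and 3 without. The windows were not matched for CG number or for G and C content. Capitals mark TGCCGC or its reverse complement GCGGCA, the letters bound, when methylated, by ZFP57, a zinc finger protein that keeps methylation at imprinted control regions. At least 1 match was found in 12.8% of 34961 promoter windows, counted in the same 250 bases on both strands. The first 3 are at MEG3 (chr14:100825858-100826107, plus strand), SNURF and SNRPN (chr15:24954737-24954986, plus strand) and an upstream GNAS start (chr20:58841370-58841619, plus strand).
MEG3: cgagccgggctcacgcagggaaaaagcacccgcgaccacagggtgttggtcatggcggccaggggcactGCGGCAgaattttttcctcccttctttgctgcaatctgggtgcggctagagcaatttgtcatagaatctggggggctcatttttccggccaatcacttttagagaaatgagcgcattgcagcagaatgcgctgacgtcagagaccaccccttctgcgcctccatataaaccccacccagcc
SNURF and SNRPN: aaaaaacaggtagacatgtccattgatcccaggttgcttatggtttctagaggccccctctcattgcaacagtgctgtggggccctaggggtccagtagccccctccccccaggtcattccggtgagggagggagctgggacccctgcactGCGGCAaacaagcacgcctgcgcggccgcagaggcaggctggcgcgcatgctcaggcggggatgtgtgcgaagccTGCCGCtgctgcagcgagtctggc
GNAS upstream: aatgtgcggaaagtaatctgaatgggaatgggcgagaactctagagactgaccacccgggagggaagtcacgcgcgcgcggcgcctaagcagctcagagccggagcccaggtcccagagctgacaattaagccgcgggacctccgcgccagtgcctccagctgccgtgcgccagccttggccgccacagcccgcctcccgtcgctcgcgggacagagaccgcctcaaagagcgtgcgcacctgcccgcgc
The next 3 had no peak: H19 (chr11:2001267-2001516, minus strand), the last GNAS start in the table (chr20:58888930-58889179, plus strand) and the last MEST start (chr7:130491835-130492084, plus strand).
H19: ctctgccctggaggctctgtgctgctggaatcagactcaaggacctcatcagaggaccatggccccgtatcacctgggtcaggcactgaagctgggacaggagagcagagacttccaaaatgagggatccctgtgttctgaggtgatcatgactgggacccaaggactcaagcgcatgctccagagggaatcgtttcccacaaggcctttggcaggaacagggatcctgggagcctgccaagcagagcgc
GNAS downstream: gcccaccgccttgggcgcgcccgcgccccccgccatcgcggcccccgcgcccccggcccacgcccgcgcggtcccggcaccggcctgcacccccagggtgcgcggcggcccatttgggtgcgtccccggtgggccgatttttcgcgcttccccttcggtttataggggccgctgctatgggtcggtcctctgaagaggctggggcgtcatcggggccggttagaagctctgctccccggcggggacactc
MEST: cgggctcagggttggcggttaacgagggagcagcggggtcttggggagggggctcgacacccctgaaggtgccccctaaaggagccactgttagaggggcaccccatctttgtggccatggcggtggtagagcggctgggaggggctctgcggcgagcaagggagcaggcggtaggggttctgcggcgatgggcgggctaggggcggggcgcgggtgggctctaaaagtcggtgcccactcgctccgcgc

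The 6 genes have 19 distinct windows of 300 bp, from 250 bp before to 50 bp after a transcript start, and 5 of these were touched by a peak, beside 21.8% of all windows. All 3 overlapping MEG3 windows are among the 5, so the share is not one of independent starts. Over all windows, a peak was present at 2.95% of those with 0 to 4 CG dinucleotides in the 250 upstream bases, 17.6% with 5 to 14, 40.1% with 15 to 24 and 37.9% with 25 or more. The GNAS window under a peak has 27 CG, the first MEG3 window 13 and the SNURF and SNRPN window 12. The H19 window, with 4 CG, falls in the class that seldom has a peak. The downstream GNAS window (33 CG, 75.6% G and C) and the MEST window (20 CG, 69.6% G and C) are CG-rich and had none. The GC skew, the excess of G over C on the transcript strand divided by their sum, was 0.29 at the MEST window and -0.09 at the downstream GNAS window. It was -0.05 at both the MEG3 and the upstream GNAS window, 0.04 at that of SNURF and 0.06 at that of H19. Among these 6 windows, the CG numbers and the skews with a peak overlapped those without. The letters TGCCGC or GCGGCA occur 2 times in the SNURF window and 1 time in the MEG3 window, and not in the other 4 shown. Over all 19 windows, 7 hold a match, 4 of them touched by a peak (the 3 overlapping MEG3 windows and that of SNURF) and 3 not. Those 3 are the windows of the starts at 130486347 in MEST, 58839748 in GNAS and 24956300 in SNRPN, with 1 match each. The share touched by a peak was not computed over all windows with a match, so the 4 of 7 has no background beside it.

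KCNQ1OT1 is a long noncoding RNA transcribed from an intron of KCNQ1, antisense to it, and known to silence neighbouring genes on the paternal copy. It spans 2608328 to 2699994 on chromosome 11, or 91.7 kb, and had 3 peaks. The highest, at 2699470 to 2700472, was 1003 bp wide with a total signal of 2836 and a maximum coverage of 5. Its summit, the middle of the region of maximum coverage, lay 15 bp outside the upper end of the gene, where transcription of KCNQ1OT1 is known to begin. Only 4.48% of all peaks had as large a total. The others lay inside the gene, at 2665078 to 2665888 (total signal 1157, maximum 3) and at 2680728 to 2681392 (total signal 804, maximum 2). The part of KCNQ1 under KCNQ1OT1 therefore held 3 peaks, or 3.27 per 100 kb (95% exact Poisson interval 0.675 to 9.56). The remaining 312 kb of KCNQ1, which encodes a potassium channel, held 19, or 6.08 per 100 kb (3.66 to 9.5). The intervals overlap, and the highest peak in that remainder reached 4, below the peak at the KCNQ1OT1 start.

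SNURF and SNRPN are encoded by 1 transcript of the Prader-Willi region, and SNRPN makes a protein of small nuclear ribonucleoproteins. A single peak served both, at 24954990 to 24955595 on chromosome 15, 606 bp wide with a total signal of 1842 and a maximum coverage of 5. It began 3 bp inside the start of SNURF at 24954987 and its summit lay 329 bp inside. The 250 bases shown above are thus immediately before the peak and not under it. SNURF spans 24954987 to 24978723 and SNRPN spans 24823637 to 24978723. Of protein-coding genes of 100 kb or more, 79.2% had a peak, and in the 155 kb of SNRPN this was the only one, 0.637 per 100 kb (95% exact Poisson interval 0.0161 to 3.55). SNRPN has 3 other transcript starts in the table. Those at 24856571 and 24862972 were 98.4 kb and 92.0 kb from the nearest peak, and the one at 24956300 was 705 bp from it.

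The SNURF peak is also the first of 7 peaks along SNHG14, the lncRNA that continues through the SNORD116 and SNORD115 arrays, the small nucleolar RNA genes of this region. SNHG14 spans 596 kb, which gives 1.17 peaks per 100 kb (95% exact Poisson interval 0.472 to 2.42). Of the other 6 peaks, 1 lay in the SNORD116 array (30 genes over 56.9 kb) and 5 in the SNORD115 array (48 genes over 99.1 kb). Their maximum coverage was 2 or 3, below the 5 at SNURF. They touched 2 snoRNA genes, SNORD115-15 and SNORD115-25, and none of the SNORD116 genes. The share over all snoRNA genes was not computed, so this count has no background beside it. Per 100 kb, the SNORD116 array held 1.76 peaks (95% exact Poisson interval 0.0445 to 9.8). The SNORD115 array held 5.04 (1.64 to 11.8), and the intervals overlap. The genes of each array closely resemble each other, so a read may have been placed at the wrong member.

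**Figure D3:**
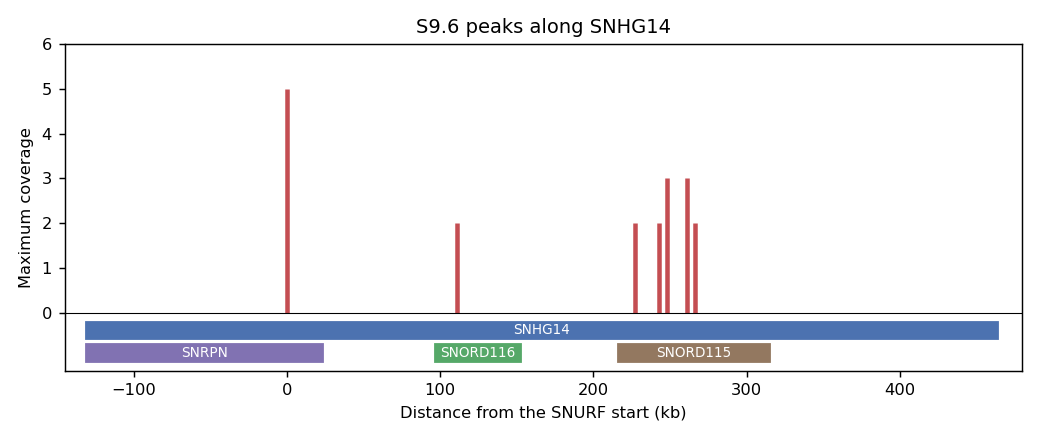
Peaks along SNHG14, with the distance from the SNURF start in kb on the x axis and the maximum coverage of each peak on the y axis. Bars mark the spans of SNHG14, SNRPN and the SNORD116 and SNORD115 arrays; the peak at the SNURF start reaches 5, and the 6 further along reach 2 or 3.

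PEG10, a retrotransposon-derived gene needed in the placenta, had the highest peak of the 10 genes. The gene lies on chromosome 7 from 94656325 to 94669695. The peak, at 94657854 to 94658775, was 922 bp wide with a total signal of 4608 and a maximum coverage of 14. Of the 45756 peaks, 273 (0.597%) were as high and 728 (1.59%) had as large a total. Its summit lay 1902 bp inside the lower end of the gene, where PEG10 is known to start, so it did not count as a boundary peak, for which a peak must come within 1000 bp of an end of the span. It stood alone: the next peaks were 146 kb below and 25.7 kb above the gene. SGCE, a sarcoglycan gene that is also paternally expressed, starts next to PEG10, with 191 bp between the spans. SGCE had no peak over its span or its 1000 bp flanks. The PEG10 peak began 1529 bp inside PEG10 and lay 1720 bp from the upper end of SGCE. It overlapped only the span of PEG10, but without strand it cannot be given to either transcript.

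MEG3 is a noncoding RNA of the DLK1 and DIO3 domain on chromosome 14, known as a growth suppressor. The gene spans 100826108 to 100861026 and had 2 peaks, while 38.7% of lncRNA genes of 30 to 100 kb, KCNQ1OT1 among them, had at least 1. One lay over its start, at 100826022 to 100826556, 535 bp wide with a total signal of 1177 and a maximum of 3. It covered the last 86 of the 250 bases shown for MEG3. The other lay inside the gene, at 100850796 to 100851694, with a total signal of 1422 and a maximum of 4, and ended 696 bp before MIR770, a microRNA gene within MEG3. The maximum inside the gene was thus slightly higher than that at the start. The mean coverage, which is the total signal divided by the width, was lower inside (1.58 against 2.2). Both MEG3 peaks were lower than the peaks at the KCNQ1OT1 and SNURF starts and in PEG10. Between DLK1 and DIO3, 837 kb in all, 27 peaks were listed, with maxima of up to 8. These 27 peaks touched 4 of the 50 microRNA hairpins there, beside 7.83% of all hairpins. These 4 rest on 2 peaks, 1 over MIR337 and MIR665 with a maximum of 4 and 1 over MIR134 and MIR668 with a maximum of 2.

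IGF2 encodes a fetal growth factor and lies on chromosome 11 from 2129117 to 2149566. It had 3 peaks of low coverage. The one at its upper end, where the gene is known to begin, was at 2149128 to 2149780, with a total signal of 986 and a maximum of 3. Those inside were at 2142498 to 2143158 (total signal 941, maximum 2) and 2145642 to 2146750 (total signal 1174, maximum 2). Both lie over IGF2-AS as well, and all 3 over the INS-IGF2 read-through gene. Without strand, a peak cannot be given to 1 of these transcripts. Between IGF2 and H19, a distance of 128 kb, 6 further peaks had a maximum coverage of 2 to 4.

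GNAS encodes the stimulatory G protein alpha subunit and, from upstream promoters, further products. It spans 58839748 to 58911192 on chromosome 20 and had 4 peaks, all in the first 35.4% of the span. The first, at 58841133 to 58841684, had a total signal of 1029 and a maximum of 3, and covered the whole window of the start at 58841620. The others, at 58846948 to 58847661 (total signal 952), 58850003 to 58850772 (total signal 1142) and 58864593 to 58865048 (total signal 814), had a maximum of 2. The first 3 of the 4 also lie over the antisense gene GNAS-AS1, and the peak at 58850003 is within 1000 bp of an end of that gene. The last of the 4 also lies over LOC101927932, within 1000 bp of an end of it. None of the 4 lay within 1000 bp of an end of GNAS. The starts at 58888413 and 58889180, in the later part of the gene, were 23.4 kb and 24.1 kb from the nearest peak. From the last GNAS peak to the next peak of the chromosome the distance was 90.9 kb.

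H19, PEG3 and MEST had no peak over the span or its flanks. H19, a maternally expressed noncoding RNA and host of MIR675, spans 1995176 to 2001266 on chromosome 11. The nearest peaks were 34.8 kb below it and 26.9 kb above it, with maxima of 3 and 2. Among lncRNA genes under 10 kb, 24% had a peak, so a gene like H19 without one is the usual case. MEST, a paternally expressed hydrolase-fold gene and host of MIR335, spans 130486175 to 130506465 on chromosome 7. Its nearest peaks were 19.1 kb and 89.6 kb away, both with a maximum of 2. Of protein-coding genes of 10 to 30 kb, 59.5% had a peak. A stretch without peaks as long as the 129 kb around MEST was not rare, as 338 of 2351 gaps between peaks on chromosome 7 (14.4%) were as long. The share counts gaps, and a long gap has more room for a gene than a short one.

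PEG3 differed from H19 and MEST in its surroundings. It encodes a zinc finger protein and lies on chromosome 19 from 56810082 to 56840726. The nearest peaks were 143 kb below and 126 kb above it, which leaves 299 kb without a listed peak. Only 7 of the 3510 gaps between peaks on chromosome 19 (0.199%) were as long, assembly gaps included, and the median gap was 5.67 kb. This is a share of gaps and not of genes, as a gene falls more easily in a long gap than in a short one. The shares for PEG3 and MEST are each of their own chromosome, and the median gap on chromosome 7 was longer, at 18.5 kb. No share over all chromosomes was computed. Of protein-coding genes of 30 to 100 kb, 67.7% had a peak. The gap around PEG3 also held ZIM2, PEG3-AS1 and MIMT1. USP29, ZIM3, DUXA and ZNF264, further up the chromosome, lay in another gap of 268 kb, with 3 peaks between the gaps.

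At gene boundaries, 4 of the 10 genes had a peak: IGF2, KCNQ1OT1, MEG3 and SNURF. This is 40% (95% Wilson interval 16.8 to 68.7), beside 22.5% of all genes, 40.1% of protein-coding genes and 18.2% of lncRNA genes, and so at the protein-coding background. In each of the 4, the boundary was the end where transcription is known to start, and none had a peak at the opposite end. PEG10, SNRPN and GNAS had peaks inside the span alone. Per length, the merged spans and flanks of the 10 genes held 14 peaks in 462 kb, or 3.03 per 100 kb (95% exact Poisson interval 1.66 to 5.08). Over all protein-coding and lncRNA genes the value was 1.96, which lies inside that interval.

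The other genes of the imprinted domains were taken from 9 lists, which also hold neighbours that are not known to be imprinted. Of 85 such genes, 47 had a peak (55.3%, 95% Wilson interval 44.7 to 65.4), 28 had a boundary peak (32.9%) and 12 had a peak of at least 5 (14.1%). The shares stand beside 60.4%, 40.1% and 17.8% of protein-coding genes and 29.3%, 18.2% and 5.46% of lncRNA genes. Some of the 85 genes overlap, share a peak or lie in the same gap, so the interval, which treats them as independent, may be too narrow. The domain of KCNQ1OT1 had the most, with 9 of 10 genes carrying a peak and 8 of 10 a peak of at least 5. Those 8 genes rest on 7 distinct peaks, since SLC22A18 and SLC22A18AS (SLC67A1 and SLC67A1-AS in the table) share one of 7, and the peak of KCNQ1 is that of KCNQ1OT1. The highest was at TSSC4, at 2399712 to 2400971 on chromosome 11, with a total signal of 5272 and a maximum of 11. PHLDA2, a maternally expressed growth-restraining gene, had one of 6 (total signal 3984). NAP1L4, OSBPL5 and the tetraspanin gene CD81 reached 5. KCNQ1-AS1 reached 3, and CDKN1C, the maternally expressed inhibitor of cyclin-dependent kinases, had none.

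**Figure D4:**
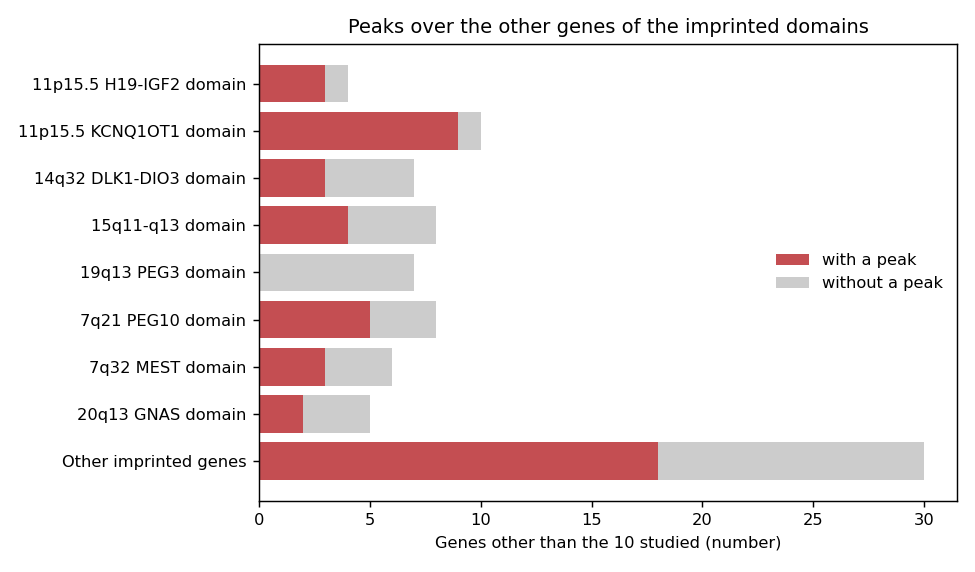
Number of genes with a peak (red) and without one (grey) over the span with 1000 bp flanks, for the genes of 9 lists other than the 10 studied. The KCNQ1OT1 domain has 9 of 10 with a peak, and the PEG3 domain has 0 of 7.

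In the PEG3 domain, 0 of 7 genes had a peak, as the gaps around PEG3 and USP29 hold all of them. The counts were 3 of 4 in the domain of H19 and IGF2 and 3 of 7 around MEG3. Among these genes, INS was the highest in the first list (4) and DLK1 in the second (4). IGF2-AS had only peaks that are also those of IGF2. The count was 4 of 8 around SNURF, where SNHG14 shares the peak of 5 and MKRN3 and ATP10A reached 4. Of the 8 genes around PEG10, 5 had a peak, none above the 3 of CASD1 and PON1. Around MEST the count was 3 of 6, with CPA4 the highest (3), and around GNAS it was 2 of 5, with GNAS-AS1 the highest (3). Of 30 further imprinted genes and their neighbours elsewhere in the genome, 18 had a peak. In that list ZFAT reached 8, BLCAP 7 and INPP5F 5.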

How the data were processed

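S9.6 CUT&Tag was made in A549 cells, with 1 S9.6 library and 1 IgG library, of which the first was analysed here. The authors' deposited peak list gives 2 signal values per peak, the total signal and the maximum coverage, as whole numbers with no scaling visible. Neither value contradicts the other, since the total never exceeds maximum times width in any of the 47810 peaks. Per the submitters' processing notes, the tools were SEACR 1.3, Bowtie2 2.4.2, fastp 0.23.2, deepTools 3.5.2, bedtools 2.30.0 and SAMtools 1.9, with GRCh38. Not given in the sources used here are their roles, the threshold for peaks, whether IgG served as control, and how duplicates and reads with several matches were handled. The depth of the library is unknown, and signal under the threshold is not listed.

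Peaks on chromosomes 1 to 22 and X were intersected with gene spans and promoter windows of RefSeq GRCh38.p14 in Python 3.11.15 (pandas 2.3.3, NumPy 2.4.6, SciPy 1.17.1). An overlap was at least 1 base. Overlap counting was checked on simulated data. Of the 85 other genes, 3 were matched by synonym. Peaks on patch and alternate sequences were not used. Genes named beside the 10 were those with a peak of at least 5, the highest of each domain, those over or next to a named peak, and some chosen after their values were seen (genes without a peak and microRNA genes). The genes and lists were chosen with earlier results of these data known. Intervals are 95% Wilson or exact Poisson and cover counting error only. Alternatives were peaks of at least 3 or 5, other overlap rules, and other flanks.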

Additional observations from a re-analysis of the deposited data

How the results depend on the processing

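With 1 library there was no replicate to leave out. No paired analysis was possible because there is 1 S9.6 library and no test. Requiring at least 50% of a peak or its summit inside the window, no flanks (boundary within 500 bp), or flanks of 5000 bp kept 7 genes with a peak. The number of distinct peaks was 14 in these settings, and 15 with 5000 bp; boundary genes were 4, and 6 with 5000 bp. With peaks of maximum coverage 3 or more, 7 genes still had a peak, while distinct peaks fell from 14 to 8. With peaks of 5 or more, 4 genes kept a peak (KCNQ1OT1, PEG10, SNRPN and SNURF), with 3 distinct peaks, 2 genes with a boundary peak, 12 of the 85 other genes with a peak, and 0.649 peaks per 100 kb. This last measure was tried under alternatives chosen after seeing the data. IGF2, MEG3 and GNAS, with maxima of 2 to 4, have no peak in that setting. With 3 or more, MEG3 kept 2 peaks, and IGF2 and GNAS 1 each.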
